A study of Danio rerio with 16 samples.

Results

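This section describes 10 genes of flow sensing and valve formation in the embryonic zebrafish heart: piezo1, klf2a, klf2b, notch1b, tbx2b, has2, vcana, bmp4, nrg1 and edn1. The genes were chosen by name, with each deposited row matched on its exact symbol. Of the 10 symbols, 9 had a row in the count table of 15419 genes, 8 passed the filter on low counts and were tested among 11750 genes, and the same 8 had values in the FPKM table. The symbol piezo1 was absent from both tables and was not analysed here. The symbol tbx2b had 2 reads in all 16 libraries together and could not be tested.

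Hearts were dissected at 48 hpf (hours post-fertilization) from embryos of the Tubingen strain that carried the myl7:GFP reporter, which marks cardiomyocytes, and poly(A) RNA from pools of hearts was sequenced. The 8 DKO libraries came from double mutants, rbfox1l-/-; rbfox2-/-, that carry CRISPR-Cas9 frameshift deletions in both genes for Rbfox RNA-binding proteins (alleles rbfox1l chb5 and rbfox2 chb6). The 8 CTRL libraries came from sibling controls, which the design entry calls wild type, and both groups share the strain, the stage and the reporter. The mutants thus rest on 1 allele of each gene, and all libraries on whole hearts. In bulk RNA, fewer cells of a type and less RNA per cell cannot be told apart.

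Valves form from the endocardium, the inner lining of the heart, at the atrioventricular canal. In zebrafish, the endocardium there is exposed to blood that moves back and forth. Mechanosensitive channels such as Piezo1 open under this force, and the transcription factor Klf2a is raised by it. Endocardial Notch1b, Bmp4 from the canal myocardium and the transcription factor Tbx2b then mark the canal as a region apart from the chambers. Hyaluronan, made by Has2, and versican form the cardiac jelly that swells into cushions. Neuregulin 1 is a ligand of the ErbB receptors, and endothelin-1 is a peptide of endothelial and mesenchymal cells. At 48 hpf the canal has been specified and the valve leaflets have yet to form, so the comparison asks which of these genes differed before then.

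The targeted genes followed the labels. rbfox1l was 441 ± 129 CPM (reads on a gene per total reads on genes, as counts per megaread, scaled by edgeR's trimmed mean of M values, TMM; mean ± SD, n = 8) in CTRL and 64.0 ± 21.3 in DKO, and rbfox2 was 89.2 ± 35.8 and 30.4 ± 4.82, with no overlap between the groups for either gene. Library depth ranged from 8809208 to 18783628 reads on genes. The makeup of the libraries moved with genotype. The summed level of the cardiomyocyte markers was 17856 to 35875 CPM in CTRL and 7381 to 18412 in DKO, with 15 of 25 tested markers lower in DKO (nkx2.5, nppa and popdc2 among them) and 0 higher. For the endocardial and endothelial markers the sums were 2236 to 3466 and 1552 to 3219 CPM, with 11 of 27 lower, among them cdh5 and pecam1, and 2 higher, whereas kdrl (−0.08 on the log2 scale) and fli1a (−0.21) did not pass. The epidermis markers summed to 6958 to 30190 CPM in CTRL and 23949 to 52335 in DKO, and 16 of 19 were higher. Leukocyte markers summed to 380 to 649 and 527 to 1228 CPM (8 of 11 higher, 7 DKO libraries above all CTRL), and erythrocyte markers to 3882 to 10014 and 199 to 437 CPM (13 of 15 lower). Outflow tract smooth muscle markers had 3 of 8 lower, pharyngeal arch and neural crest markers 2 of 16 lower and 9 higher, and epicardial markers 1 of 7 in each direction. The pharyngeal arch and neural crest sum went the other way from its gene counts. It was 2118.5 to 2603.7 CPM in CTRL and 1628 to 1986 in DKO, with all 8 DKO libraries below all CTRL libraries. Of the cardiomyocyte, endocardial and epidermis marker symbols with a row, epcam, krt15, ckma, myct1a and plvapb were at or near 0 in every library. The part of this shift in the results below was not tested. The 8 genes are given below also with the libraries scaled by the cardiomyocyte and endocardial markers and with the epidermis sum as a covariate, and the pathway lists by their counts under the same fits. The epidermis sum itself moved with genotype, with 6 DKO libraries above all CTRL libraries. With this covariate, a lost call therefore cannot be told apart from lost power. The marker lists used for scaling also moved with genotype. Scaling by the cardiomyocyte markers raised the median of all tested genes by 0.97 on the log2 scale, and by the endocardial markers by 0.54. Under these scalings, a lost lower call therefore does not show that a gene was unchanged, and a kept higher call adds no support.

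In DKO hearts, 4 of the 8 tested genes fell and 1 rose. klf2a, notch1b and has2 fell between 2.47-fold and 2.91-fold, bmp4 fell 1.59-fold, and edn1 rose 1.41-fold. klf2b, vcana and nrg1 did not pass the test (edgeR quasi-likelihood F-test, adjusted p under 0.05 over all 11750 genes). Among all tested genes, 13.9% passed as lower and 13.2% as higher. The 4 of 8 lower genes stand beside the first share and the 1 of 8 higher beside the second. The genes were chosen with earlier results of these data known, so an excess over these shares is not independent evidence. For klf2a, notch1b and has2 every DKO library was below every CTRL library, which held for 4.38% of all tested genes in this direction. No gene of the 8 was wholly above (0 of 8, against 1.29% of all tested genes). The median log2 fold change was 0.02 over all tested genes. The plot of CPM by library shows the 3 separated genes in its upper row and the overlap of the rest.

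**Figure D1:**
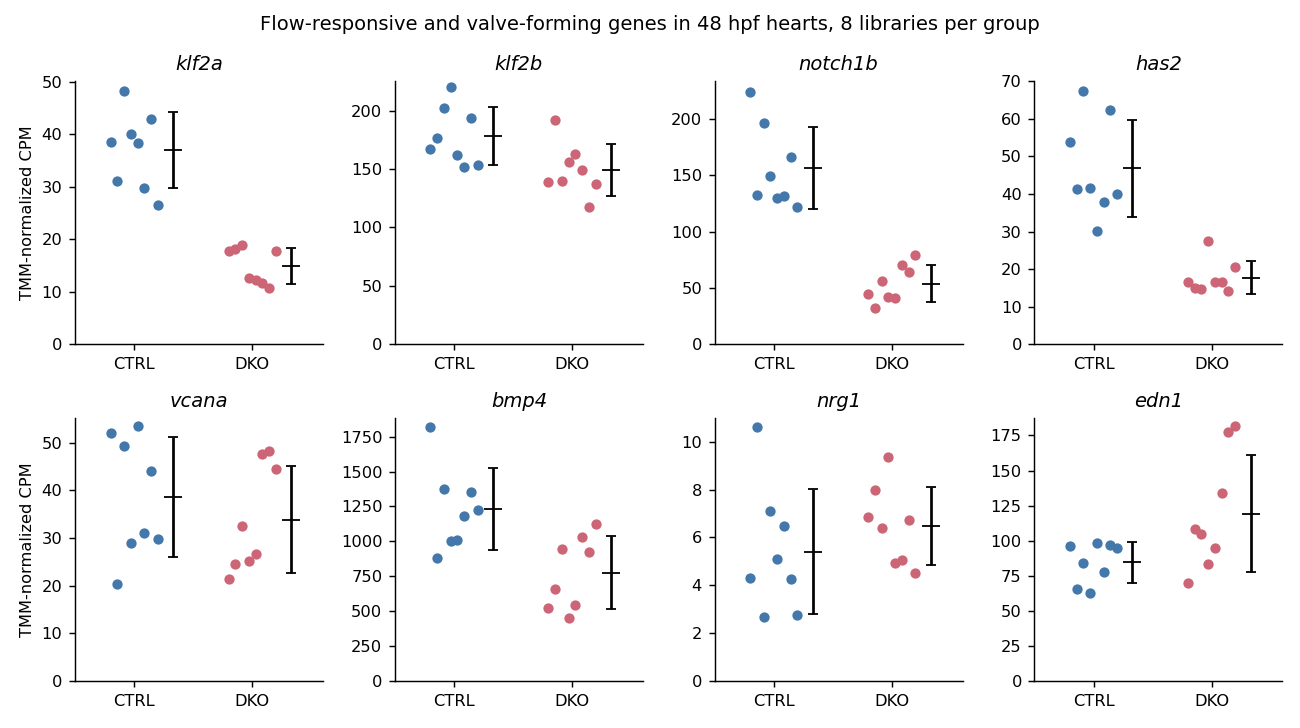
TMM-normalized CPM of the 8 tested genes in each library (points; linear axes from 0), with the mean and SD of each group (n = 8) as bars. The CTRL and DKO points do not overlap for klf2a, notch1b and has2, and they overlap for klf2b, vcana, bmp4, nrg1 and edn1.

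Klf2 is the transcription factor that endothelial cells raise under flow, and zebrafish carry it as the paralogs klf2a and klf2b. klf2a had a lowest, median and highest level of 26.5, 38.5 and 48.3 CPM in CTRL and of 10.7, 15.2 and 18.8 CPM in DKO. The highest DKO library thus lay below the lowest CTRL library. The log2 fold change was −1.30 ± 0.15 (SE; 95% interval −1.61 to −0.999; adjusted p = 2.78e-06). klf2b was at 152, 172 and 220 CPM in CTRL and at 117, 144 and 192 CPM in DKO. The groups overlapped, although 5 of 8 DKO libraries were below all CTRL libraries. Its log2 fold change was −0.26 ± 0.10 (95% interval −0.46 to −0.06; adjusted p = 0.0700) and did not pass. It passed as lower without DKO replicate 2, the highest DKO library (−0.32, adjusted p = 0.0245), and as higher under cardiomyocyte marker scaling (0.75, adjusted p = 0.0136). Under that scaling 76.8% of all tested genes passed as higher and their median was 0.99, above the value of klf2b.

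The paralogs therefore changed unequally. Within a library the difference between klf2a and klf2b on the log2 CPM scale does not depend on how the libraries are scaled. It was −2.28 ± 0.20 (SD, n = 8; −2.52 to −2.06) in CTRL and −3.32 ± 0.34 (−3.71 to −2.88) in DKO, a shift of −1.04 (two-sided exact permutation test, p = 0.000155, the smallest that 8 against 8 libraries can give). All 8 DKO libraries lay below every CTRL library. The difference can still depend on the makeup of the libraries, which was not tested. Within DKO, Pearson's r with the epidermis marker sum was 0.76 for klf2b and 0.48 for klf2a. Within CTRL it was 0.07 and −0.30.

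Among the other genes of flow sensing and the Klf2 pathway, 7 of 43 tested fell, 9 rose and 27 did not pass, with a median log2 fold change of 0.00, beside 13.9% lower and 13.2% higher over all genes. The counts were 3 lower and 22 higher under endocardial scaling, 1 and 30 under cardiomyocyte scaling, and 2 and 0 with the epidermis covariate. Over all genes the shares lower and higher were 4.15% and 51.1% under endocardial scaling and 1.24% and 76.8% under cardiomyocyte scaling. With the covariate they were 4.04% and 1.67%. The same shares stand beside the counts of the lists below. These lists too were chosen with earlier results of these data known. trpv4, a calcium channel that responds to flow in zebrafish endocardium, fell from 42.0 ± 7.97 to 9.47 ± 2.7 CPM (−2.14 ± 0.17; adjusted p = 2.25e-08), without overlap. pkd2, the channel polycystin-2, was at 7.54 ± 2.55 and 8.45 ± 4.11 CPM and did not pass (0.18 ± 0.29; adjusted p = 0.720). heg1, a receptor that stabilizes endothelial junctions (−1.08), and the transcription factor mef2aa (−1.01) also fell. trpv4 passed under every scaling and with the epidermis covariate, but heg1 and mef2aa lost their calls under cardiomyocyte scaling (−0.11 and −0.12; adjusted p = 0.656 and 0.53) and with the covariate (0.0918 and 0.0799). The largest rises were in the channel trpm4a (1.53), the Krüppel-like factor klf17 (1.25) and wnt9b (1.09), a Wnt ligand that Klf2a controls in the zebrafish heart. These 3 genes were also positive under every scaling, but the marker scalings shift all genes upward, so this adds no support. None of the 3 passed once the epidermis marker sum was a covariate (adjusted p = 0.138, 0.231 and 0.426).

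Notch1b is the Notch receptor that marks the endocardium of the atrioventricular canal in zebrafish. notch1b was at 122, 141 and 224 CPM (lowest, median, highest) in CTRL and at 32.2, 50.3 and 79.2 CPM in DKO. The 8 DKO libraries were all below the CTRL range. It had the largest decrease of the tested genes named at the start, with a log2 fold change of −1.54 ± 0.18 (95% interval −1.89 to −1.19; adjusted p = 3.05e-06). The receptors notch1a and notch2 did not follow. notch1a was at 91.0 ± 12.8 and 86.1 ± 5.95 CPM (−0.08 ± 0.09; adjusted p = 0.591), whereas notch2 rose from 124 ± 24.2 to 199 ± 68.4 CPM (0.68 ± 0.17; adjusted p = 0.00584).

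In the Notch list, 5 of 25 tested genes fell and 4 rose, with a median of 0.10 (all genes 13.9% and 13.2%). The counts were 3 lower and 17 higher under endocardial scaling, 1 and 20 under cardiomyocyte scaling and 1 and 1 with the covariate. The ligand dll4 of endothelial cells fell from 35.5 ± 6.48 to 17.9 ± 4.16 CPM (−0.99), and the target hey2 from 95.1 ± 16.6 to 41.0 ± 16.4 CPM (−1.21), both without overlap. The ligand jag1a was also lower (−1.16; 10.8 ± 4.46 and 4.83 ± 1.94 CPM), while its paralog jag1b was at 91.5 ± 8.59 and 99.2 ± 16.3 CPM (0.12, adjusted p = 0.443). The ligands dlb (1.38) and dla (0.89), known from neural tissue, rose. With the epidermis marker sum as a covariate, dll4 kept its call (−0.93, adjusted p = 0.00848), though not under cardiomyocyte scaling (−0.072, adjusted p = 0.788), and hey2 (−0.79, adjusted p = 0.0877), jag1a (0.597, and 0.740 under cardiomyocyte scaling), dlb (0.196), dla (0.308) and notch2 (0.571) did not.

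Tbx2b represses chamber genes in the canal. tbx2b had 2 reads in CTRL replicate 3 and 0 in the other libraries. The 0 reads among 102668468 in DKO allow a level of up to 0.0278 CPM by counting error, and no fold is given. Its paralog tbx2a had 1 read, and smad1, ugdh and erbb2, genes used by most tissues, had 1, 2 and 3 reads. Whether these genes are expressed in the hearts cannot be read from such rows. The reason for the low counts was not tested. Of the other canal and valve transcription factors, 6 of 27 tested fell and 8 rose (all genes 13.9% and 13.2%). Their median was −0.09 and turned to 0.06 under library size alone. The counts were 4 lower and 13 higher under endocardial scaling, 0 and 18 under cardiomyocyte scaling and 2 and 0 with the covariate. nfatc1, the factor of valve endocardium, fell from 84.1 ± 17.9 to 36.4 ± 7.08 CPM (−1.21), as did hand2 from 1526 ± 204 to 716 ± 73.9 CPM (−1.09), both without overlap, and gata5 (−1.17) fell as well. tbx3a, a related repressor in the canal, rose from 39.2 ± 13.7 to 69.4 ± 19.8 CPM (0.82, adjusted p = 0.00585), and so did sox9b (1.14), sox9a (1.04) and msx1a (1.01). With the epidermis covariate, nfatc1 and hand2 kept their calls (adjusted p = 0.00281 and 0.000166), and gata5, tbx3a, sox9b, sox9a and msx1a did not (0.216, 0.690, 0.114, 0.816 and 0.630). Under cardiomyocyte scaling nfatc1 (−0.22, adjusted p = 0.336), hand2 (−0.12; 0.596) and gata5 (−0.31; 0.11) all lost their calls.

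Has2 synthesizes the hyaluronan of the cardiac jelly, and vcana encodes a versican, the proteoglycan bound to it. has2 was at 30.1, 41.4 and 67.4 CPM in CTRL and at 14.1, 16.5 and 27.4 CPM in DKO. The ranges were separate, with DKO replicate 4 the highest of the mutants. The log2 fold change was −1.40 ± 0.17 (95% interval −1.74 to −1.06; adjusted p = 4.08e-06). vcana was at 20.4, 37.5 and 53.6 CPM in CTRL and at 21.4, 29.5 and 48.3 CPM in DKO. The DKO range lay wholly inside the CTRL range. Its log2 fold change of −0.19 ± 0.22 did not pass (adjusted p = 0.576), and the 95% interval, −0.62 to 0.23, leaves room for a decrease or an increase.

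The enzyme paralogs has1 (1.74 ± 0.85 and 1.03 ± 1.02 CPM) and has3 (2.81 ± 1.04 and 1.5 ± 0.93 CPM) did not pass (−0.77 and −0.89; adjusted p = 0.336 and 0.107). vcanb was at 43.3 ± 5.17 and 50.1 ± 13.98 CPM (0.21, adjusted p = 0.326). hapln1a, which links hyaluronan to versican, was at 696 ± 97.8 and 899 ± 243 CPM (0.37 ± 0.15; adjusted p = 0.0660) and did not pass, and hapln1b had no row. Over the matrix list, 5 of 21 tested genes fell and 1 rose (all genes 13.9% and 13.2%). The list median was −0.07, and 0.07 under library size alone. The counts were 1 lower and 10 higher under endocardial scaling, 0 and 13 under cardiomyocyte scaling and 1 and 1 with the covariate. The elastic fibre gene fbln5 fell from 238 ± 36.5 to 85.9 ± 23.4 CPM (−1.47; −0.52, adjusted p = 0.0720, under cardiomyocyte scaling). Decorin, dcn, rose from 229 ± 43.7 to 356 ± 59.3 CPM (0.63), but not with the epidermis covariate (0.21, adjusted p = 0.470). The protease gene adamts9 (−0.76) and the hyaluronidase gene hyal1 (−0.59) fell too, but were positive under cardiomyocyte marker scaling (0.26 each) and did not pass with the covariate (adjusted p = 0.250 and 0.890).

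Bmp4 is the ligand of the canal myocardium that signals to the endocardium. bmp4 was at 881, 1203 and 1818 CPM in CTRL and at 454, 792 and 1126 CPM in DKO. The groups overlapped, with 4 DKO libraries below all CTRL libraries and the other 4 inside their range. The log2 fold change was −0.67 ± 0.19 (95% interval −1.04 to −0.29; adjusted p = 0.0141). The call was lost under endocardial marker scaling (−0.20, adjusted p = 0.176) and with the epidermis covariate (−0.047, adjusted p = 0.934), and the direction turned under cardiomyocyte marker scaling (0.21, adjusted p = 0.261).

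In the BMP and TGF-beta list, 14 of 48 tested genes fell and 5 rose, with a median of −0.10 that was 0.05 under library size alone (all genes 13.9% and 13.2%). The counts were 7 lower and 24 higher under endocardial scaling, 1 and 35 under cardiomyocyte scaling and 3 and 0 with the covariate. id2b, a target of BMP signalling, fell from 491 ± 82.2 to 66.8 ± 21.6 CPM (−2.88 ± 0.18; adjusted p = 6.13e-10), a larger change than that of any of the 8 genes. It passed under every scaling and with the epidermis covariate (−2.51). The ligand tgfb3 (−1.26) and the receptor tgfbr2b (−1.18) fell without overlap and kept their calls with the covariate (adjusted p = 0.00641 and 0.0275), but not under cardiomyocyte scaling (−0.37 and −0.26; adjusted p = 0.0544 and 0.221). The type I receptor bmpr1aa was at 93.2 ± 16.3 and 102 ± 12.02 CPM (0.12, adjusted p = 0.468), whereas bmpr1ba (0.96) and bmpr1bb (0.91) rose, as did tgfbi (1.17). These 3 did not pass with the covariate (adjusted p = 0.621, 0.301 and 0.616). bmp2b had 0 reads in all libraries.

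Nrg1 is a ligand of ErbB receptors. nrg1 was at 2.67, 4.70 and 10.6 CPM in CTRL (27 to 122 reads) and 4.53, 6.57 and 9.36 CPM in DKO (47 to 187 reads). The DKO range lay within that of CTRL. The log2 fold change of 0.26 ± 0.27 did not pass (95% interval −0.26 to 0.78; adjusted p = 0.53), so a change of this size was not detectable at this depth and spread. It was −0.52 with the epidermis covariate (adjusted p = 0.386). Among its receptors, erbb3b was at 3.84 ± 1.65 and 6.08 ± 1.06 CPM (0.66, adjusted p = 0.0607) and erbb4a at 4.86 ± 2.45 and 3.87 ± 1.74 CPM (−0.33, adjusted p = 0.520). erbb2 had 3 reads and erbb4b no row.

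Of the 12 tested genes of the ErbB list, 3 fell and 3 rose, with a median of 0.19 (all genes 13.9% and 13.2%). The counts were 2 lower and 7 higher under endocardial scaling, 1 and 8 under cardiomyocyte scaling and 2 and 1 with the covariate. errfi1a, a feedback inhibitor of these receptors, fell from 87.4 ± 15.9 to 26.3 ± 6.48 CPM (−1.74 ± 0.15; adjusted p = 4.58e-08) and passed under every scaling and with the epidermis covariate. The ligands hbegfa (−1.18) and nrg2a (−0.57) fell. Under cardiomyocyte scaling hbegfa was at −0.18 (adjusted p = 0.556) and nrg2a at 0.41 (0.136), and nrg2a also lost its call with the covariate (0.217). erbb3a (1.52), hbegfb (0.77) and egfra (0.64) rose, and of these egfra alone kept its call with the covariate (adjusted p = 0.0364).

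Edn1 is the peptide endothelin-1, which endothelial cells regulate with shear in mammals. edn1 was at 62.4, 89.5 and 98.5 CPM in CTRL and at 69.7, 107 and 182 CPM in DKO. The groups overlapped in the lower part, and 5 DKO libraries were above all CTRL libraries. The log2 fold change was 0.50 ± 0.18 (95% interval 0.15 to 0.85; adjusted p = 0.0462). This call sat at the threshold. It was lost without any 1 of CTRL replicates 1 to 7 or of DKO replicates 2, 6, 7 and 8 (adjusted p up to 0.0894, without DKO replicate 7), and also with no filter on low counts (0.0540). Under endocardial marker scaling the log2 fold change of edn1 was 0.95 (adjusted p = 1.98e-05), and with the epidermis covariate 0.98 (adjusted p = 0.00557). The endocardial scaling raised the median of all tested genes to 0.56, with 51.1% passing as higher. With the group means removed, edn1 ran against the epidermis sum (r = −0.60, and −0.85 within DKO), and that sum was higher in DKO. The larger value with the covariate therefore adds no independent support. The leukocyte marker sum moved in the same direction. DKO replicates 7 and 8, with the highest leukocyte sums (1196 and 1228 CPM), also had the highest edn1 (178 and 182 CPM), and with the group means removed the r of edn1 with this sum was 0.76 (0.81 within DKO). Other sums ran with edn1 as closely or more so. The r was 0.88 with the endocardial and endothelial sum (0.95 within DKO), 0.79 with the cardiomyocyte and 0.77 with the outflow tract sum. The part of these cell types in the edn1 result was not tested.

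The endothelin list had 4 of 13 tested genes lower and 7 higher, with a median of 0.50 (all genes 13.9% and 13.2%). The counts were 1 and 8 under endocardial scaling, 1 and 9 under cardiomyocyte scaling and 1 and 1 with the covariate. The ligand edn2 rose from 34.0 ± 9.16 to 84.5 ± 31.1 CPM (1.31 ± 0.22; adjusted p = 0.000208) without overlap, and kept its call with the epidermis covariate (1.87, adjusted p = 0.000138). The receptor ednrab fell from 79.1 ± 14.97 to 31.0 ± 11.2 CPM (−1.35 ± 0.20; adjusted p = 5.35e-05). The receptor ednraa fell from 279 ± 38.1 to 198 ± 48.5 CPM (−0.50), and the converting enzyme ece1 fell too (−0.58), but both were positive under cardiomyocyte marker scaling (0.42 and 0.29), and neither passed under endocardial scaling (adjusted p = 0.991 and 0.382) or with the covariate (0.776 and 0.930). dlx5a (1.1) and dlx6a (1.08), which act downstream of endothelin-1 in the zebrafish jaw, rose without passing the covariate fit (adjusted p = 0.828 and 0.891).

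**Figure D2:**
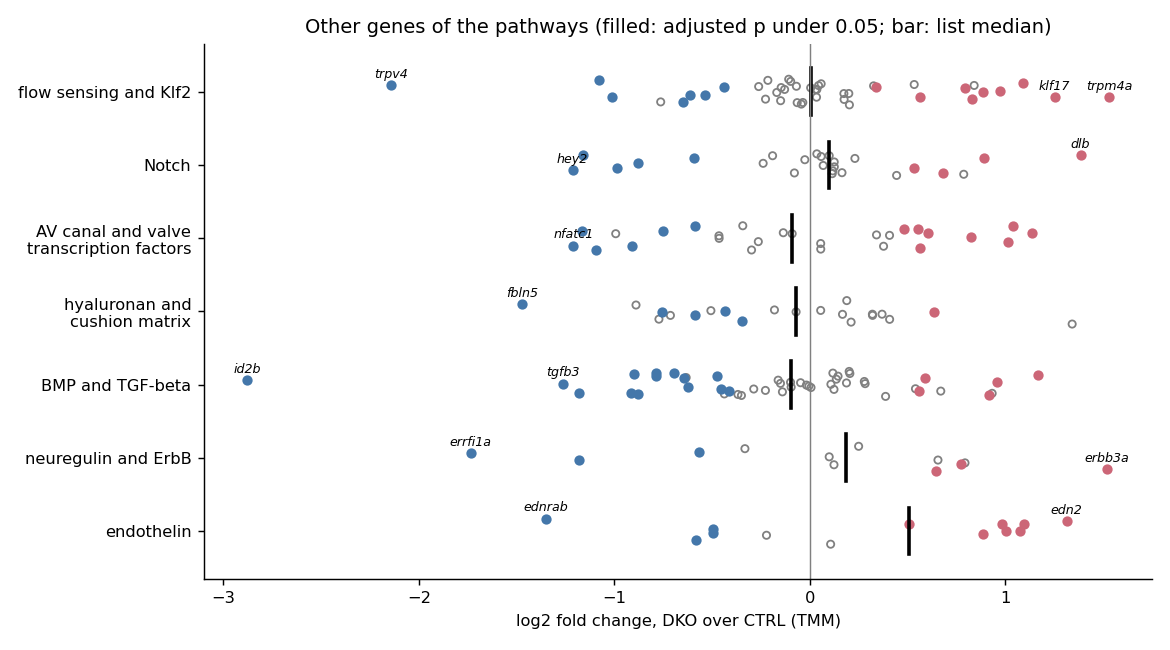
Log2 fold change (DKO over CTRL, TMM) of each tested gene in the 7 pathway lists, which leave out the genes named at the start. Filled points passed at adjusted p under 0.05 (blue lower, red higher), open points did not, bars are list medians, and passing genes beyond 1.2 on the log2 scale are labelled. id2b at −2.88 and trpv4 at −2.14 lie farthest to the left.

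Because the marker sums differed between the groups, the fits were repeated with size factors from the marker lists. Scaling by the endocardial and endothelial markers moved the median of all genes by 0.54 on the log2 scale, with 4.15% of genes lower and 51.1% higher. notch1b (−1.06, adjusted p = 1.47e-05), has2 (−0.81; 0.00531) and klf2a (−0.74; 0.00659) kept their calls, while klf2b was at 0.30 (0.176), vcana at 0.28 (0.145) and nrg1 at 0.79 (0.0578). Scaling by the cardiomyocyte markers moved the median by 0.97, with 1.24% of genes lower and 76.8% higher. notch1b was then the 1 gene of the 8 that passed as lower (−0.64, adjusted p = 0.00381), with klf2a at −0.30 (0.291) and has2 at −0.35 (0.230). edn1 (1.36), nrg1 (1.19), klf2b (0.75) and vcana (0.70) passed as higher. The plot of fold changes by scaling shows all 8 genes moving to the right together with the median of all genes, since a change of size factors shifts every gene by about the same amount.

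**Figure D3:**
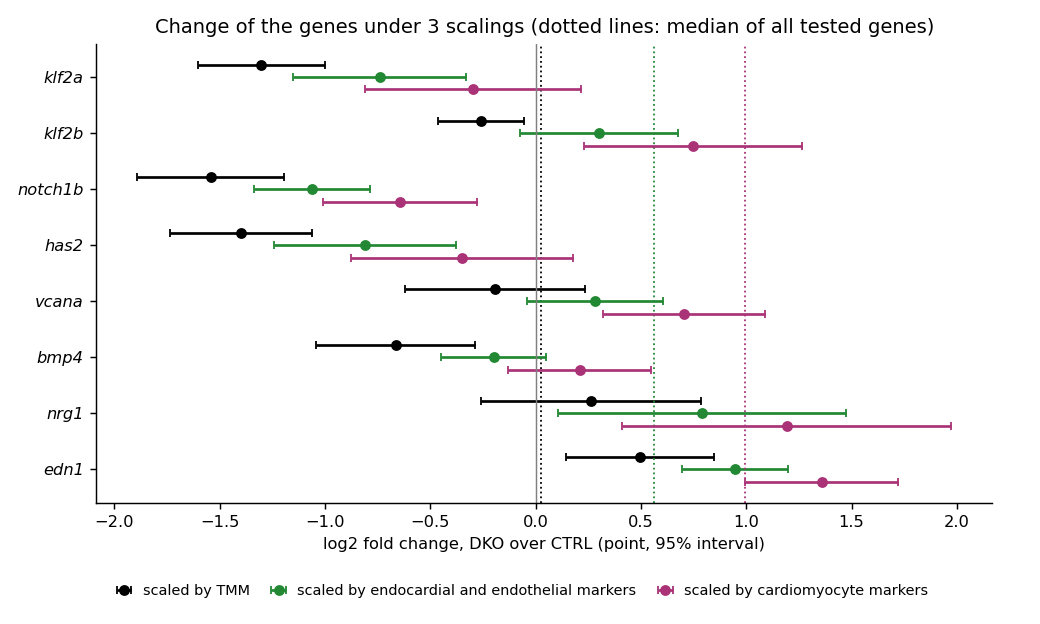
Log2 fold change of the 8 genes (points) with 95% intervals (bars) under TMM, endocardial and endothelial marker scaling and cardiomyocyte marker scaling; dotted lines mark the median of all tested genes under each. The intervals of notch1b stay below 0 under all 3 scalings and those of edn1 above 0. Both marker scalings shift all genes upward, so for edn1 this adds no support to its rise.

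A further fit, chosen after the data were seen, held the summed epidermis markers as a covariate. In it 4.04% of genes passed as lower and 1.67% as higher. The epidermis sum differed between the groups, so the covariate shares part of the contrast, and a lost call does not show that a gene was unchanged. Nor does a value that grew in this fit, as for edn1, add independent support. klf2a (−1.26, adjusted p = 0.000760), notch1b (−1.02; 0.000848) and has2 (−1.01; 0.00683) were lower and edn1 (0.98; 0.00557) higher, and klf2b (−0.38; 0.153) and vcana (0.43; 0.366) did not pass.

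The genes also differed in how they varied among libraries of 1 genotype. With the group means removed, bmp4 followed the summed cardiomyocyte markers across the 16 libraries at Pearson's r = 0.96 (Spearman's rho 0.98; 0.95 within CTRL, 0.96 within DKO, n = 8 each). The value was 0.96 without the 2 libraries farthest from the median marker sum. notch1b (r = 0.82), vcana (0.82) and edn1 (0.79) did so less closely. Against the endocardial markers the values were 0.94 for bmp4, 0.80 for notch1b, 0.82 for vcana and 0.88 for edn1. Against the epidermis markers they were −0.69 for bmp4, −0.66 for notch1b, −0.66 for vcana and −0.60 for edn1. The part of non-heart tissue in these relations was not tested. klf2a (0.15 with the cardiomyocyte and 0.08 with the endocardial markers) and has2 (0.09 and 0.20) showed little relation over all libraries. The groups differed, however. For klf2a the cardiomyocyte and endocardial values were 0.52 and 0.47 within CTRL, and −0.04 and −0.12 within DKO. For has2 the r with the endocardial markers was 0.74 within CTRL and −0.18 within DKO. nrg1 ran with the epidermis markers (0.75) and against the endocardial (−0.60) and cardiomyocyte markers (−0.53). All libraries share the tissue and the dissection, and these values are descriptions among 64 computed relations (8 genes with 8 marker sums), without a test.

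**Figure D4:**
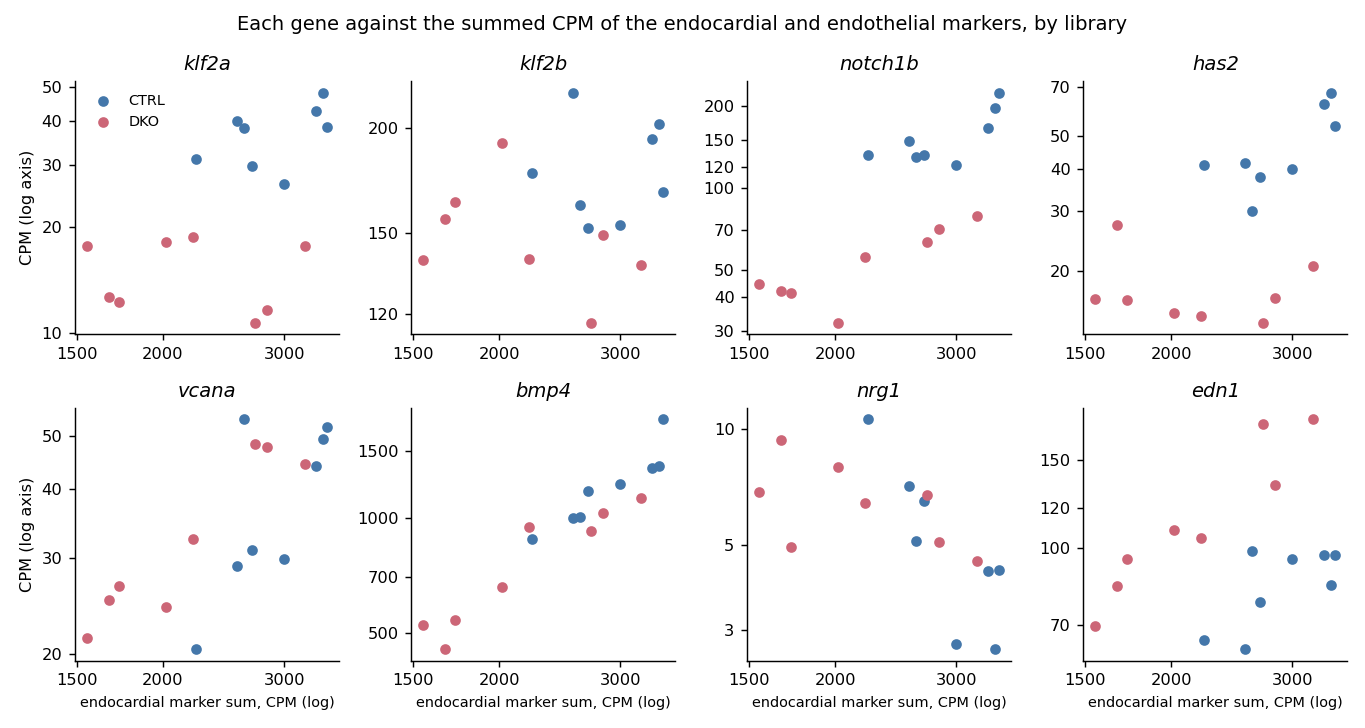
CPM of each gene against the summed CPM of the endocardial and endothelial markers (both axes log) in the 8 CTRL and 8 DKO libraries. For klf2a, notch1b and has2 every DKO point lies below every CTRL point, since their CPM ranges do not overlap. The endocardial and endothelial sums of 5 DKO libraries lie below all CTRL sums, so only part of that axis holds both groups. For bmp4 the groups overlap in CPM, with values from 454 to 1818.

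Among the 8 genes, the closest pairs across libraries were notch1b with bmp4 (r = 0.81), vcana with edn1 (0.81) and bmp4 with edn1 (0.78). klf2a and klf2b had r = 0.48, and klf2a had r between −0.13 and 0.28 with each of the other 6 genes. Of all genes with a mean of at least 5 CPM, those most like bmp4 were anxa13, usp2a and prnprs3 (r = 0.97 each), those most like notch1b were obsl1a, ogdha and the myosin gene myh6 (0.93 each), and those most like vcana were msna, itgb1b and mybpc3 (0.94 each). edn1 was nearest to tpi1a (0.96), calcrla (0.95) and srgn (0.94). For klf2a the highest values were lower, with epc2 (0.79), cited4b (0.70) and ap3m1 (0.69), and so they were for klf2b with arhgef18a (0.83), ndc1 (0.79) and adkb (0.79) and for has2 with elmod2 (0.82), pomgnt2 (0.80) and adar (0.79). nrg1 was nearest to cldnf, gna15.1 and zgc:91849 (0.87 each). Each value was picked as the highest over a whole table of genes in 16 libraries.

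Per length, in the deposited FPKM, the order of the 8 genes can be given. In CTRL the medians ran from 54.3 for bmp4 through 28.6 for klf2b, 16.6 for edn1, 12.5 for klf2a, 2.61 for has2, 1.37 for notch1b and 0.571 for vcana to 0.0219 FPKM for nrg1. Of the neighbours in this order, edn1 (12.1 to 19.1 FPKM) and klf2a (9.85 to 17.0) overlapped, as did has2 (1.62 to 3.998) and notch1b (1.09 to 1.92), and the others were separate in CTRL. The length that the FPKM divides by spans introns as well as exons, from 2.697 kb for klf2a to 103 kb for notch1b and 188 kb for nrg1, so genes with long introns take low values. Under a threshold of adjusted p under 0.05, more than 1.5-fold and over 5 FPKM in at least 1 library, klf2a and bmp4 were called lower (4.66% of tested genes) and 0 of the 8 higher (3.32%). has2 and notch1b, with highest values of 3.998 and 1.92 FPKM, were left out by the FPKM limit.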

How the data were processed

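Reads of 16 libraries (8 CTRL, 8 DKO) were aligned by the authors with STAR 2.6.1a to GRCz11 (danRer11) and counted with HTSeq 0.11.2 on RefSeq genes. The deposited counts are whole, not normalized reads per gene. The deposited FPKM values equal these counts over the library's total on genes and 1 fixed length per gene, and for 7 of 8 genes that length was within 10% of the gene's span in RefSeq GRCz12tu, an assembly used for names and spans only. The strand setting of the counting is not given in the sources used here, so reads of overlapping antisense genes cannot be told apart. Per library, 59.6% to 65.6% of reads were assigned to no gene and 12.8% to 16.4% were not aligned uniquely. Those entries, which name no gene, were left out. Molecules were not tagged, so the depth (8809208 to 18783628 reads on genes) sets a lower limit on the technical error.

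Counts were tested with edgeR 4.0.16 in R 4.3.3 (filterByExpr, TMM, robust quasi-likelihood F-test, two-sided) over all 8 against 8 libraries, with Benjamini-Hochberg adjustment over 11750 genes. The SE is the log2 fold change over the square root of F, and the 95% interval is 1.96 SE. The chi-square per gene between replicates of a group was at least 10.8, so no library repeats another. On simulated counts with 200 changed genes of 11750, the fit recovered 143 with 6 false calls, and DESeq2 recovered 163 with 24. The changed genes rose and fell in equal number, and the makeup of the simulated libraries did not shift with the group. These rates therefore need not hold for the data. DESeq2 1.42.0, limma 3.58.1 on log2(FPKM + 1) and log2(FPKM + 0.1), other size factors, filters, thresholds, a replicate block and each library left out were alternatives. Correlations used log2 CPM with a prior count of 2.

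The genes, pathway lists and marker lists were chosen with earlier results of these data known. From each pathway list, the text names the 3 passing genes with the largest log2 fold change in each direction and the direct partners of the 10 genes. The likeness paragraph names the 3 most alike genes with a mean of 5 CPM or more. Figures were drawn with matplotlib.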

Additional observations from a re-analysis of the deposited data

Results flagged for a closer look

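In 130 sets of 8 libraries (1 gene in 1 group), 8 had a highest or lowest library whose gap to the next, relative to the range of the set, was above Dixon's 95% critical value. Chance alone flags about 1 set in 20. tbx2b was at 0.198 CPM in CTRL replicate 3 and 0 elsewhere, tbx2a at 0.0870 CPM in CTRL replicate 2 and 0 elsewhere, and erbb2 at 0.116 CPM in CTRL replicate 1, which are single reads or pairs of reads. hey2 was highest in CTRL replicate 1 (132 CPM), dlx6a in CTRL replicate 5 (48.9 CPM), dlb in DKO replicate 5 (44.7 CPM) and has1 in DKO replicate 7 (3.36 CPM). ednrab was lowest in CTRL replicate 2 (44.8 CPM). None of the 8 tested genes named at the start had such a library in either group.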

How the results depend on the processing

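klf2a, notch1b and has2 kept their direction under all 28 alternatives and their call in all 16 fits without 1 library (−1.35 to −1.23, −1.64 to −1.45 and −1.51 to −1.30). klf2a and has2 lost the call under cardiomyocyte marker scaling (−0.30 and −0.35). bmp4 (−0.76 to −0.56 without 1 library) was at −0.20, 0.21 and −0.047 under endocardial scaling, cardiomyocyte scaling and the epidermis covariate. klf2b (−0.32 to −0.21) was at 0.30 and 0.75 under the marker scalings, vcana (−0.28 to −0.11) at 0.28, 0.70 and, with the covariate, 0.43. nrg1 (0.16 to 0.49) was at 1.19 under cardiomyocyte scaling and −0.52 with the covariate. edn1 was 0.39 to 0.59 without 1 library, passing in 5 of 16 fits, and 0.50 with no filter (adjusted p = 0.0540). The endocardial and cardiomyocyte scalings moved the median of all tested genes too, by 0.54 and 0.97. The cause of the other shifts was not tested.

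Of the 8 genes, 2 were lower under the thresholds with FPKM and 1 under cardiomyocyte scaling, and 4 were higher under that scaling. The 1 higher gene became 0 with no filter, over 1.5-fold, with FPKM, at adjusted p under 0.01 and in 11 of 16 fits without 1 library (0 to 1). Among all genes, lower calls (1631) numbered 488, 146 and 475 under endocardial scaling, cardiomyocyte scaling and the covariate, 1004 over 1.5-fold and 548 with FPKM. Higher calls (1553) numbered 2608 under library size alone, 6010, 9020 and 196 under those 3, 2534 and 2512 with limma at pseudocounts of 1 and 0.1, 390 with FPKM and 839 at adjusted p under 0.01. Lower genes were 51.2% of calls, but 31.0% under library size alone (median shift 0.15), 31.2% and 31.4% with limma (0.11 and 0.14), 7.51% and 1.59% under the marker scalings and 70.8% with the covariate.

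No pairing of the libraries by replicate number was detected. The check cannot exclude pairing, since the makeup of the libraries also varied within each group. Same-numbered deviations correlated at −0.28 to 0.11, over 0.1 in 3 of 8 pairs, and none of the 8 matched its own number best. With the replicate block 1616 genes were lower and 1542 higher, and no call of the 8 genes changed.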
